A study of Bos taurus with 12 samples.

Results

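The miR-30 family was followed in small RNA libraries from mammary biopsies of Chinese Holstein cows. The 6 members (bta-miR-30a-5p, bta-miR-30b-5p, bta-miR-30c, bta-miR-30d, bta-miR-30e-5p and bta-miR-30f, written below without the prefix bta for cattle) were taken by name from the 388 mature miRNAs of the deposited table. None of the 6 was listed with more than 1 precursor. A single other arm of the family was present in the table, miR-30b-3p.

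The 12 libraries fell into 4 groups of 3. HP and LP came from cows in lactation with a high and a low milk protein percentage, respectively. HD and LD stood for the same high and low classes among cows that were not lactating. The cows were healthy and multiparous, each library came from a different cow, and the stages were therefore never compared within a cow. Lactating cows were biopsied around peak lactation and the others in the weeks before the expected calving. The milk protein class of a cow came from its previous lactation records. In these bulk biopsies, fewer cells of a type and less RNA per cell cannot be told apart.

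MiRNAs are short RNAs that guide the RNA-induced silencing complex to mRNAs, mainly through the seed at their 5′ end. Members of the miR-30 family share that seed, so their predicted targets overlap widely, while they come from separate precursors. The family is known for restraining epithelial-mesenchymal transition and for limiting autophagy through BECN1. In the mouse mammary gland, forced expression of miR-30b is known to disturb lactation and to delay involution. The mature sequences were not used here.

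Values were given in the authors' unit TPM, the reads of an entry as a part of all reads counted in the library, scaled so that a library sums to between 999952 and 999976, without a correction for length. Mature miRNAs are nearly equal in length, but ligation during library preparation favours some sequences, so levels of different members are less comparable than levels of 1 member in different libraries. The members are also close in sequence and reads were mapped with 1 mismatch, so a read of 1 member could be counted for another. That share was not tested.

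The reads counted on miRNA entries, inferred from the step between deposited values, ranged from 6026797 to 13374171 in lactation (median 10732749) and from 11047701 to 23577942 in the non-lactating period (median 21208518). These totals hold only reads assigned to miRNAs and are not the number of reads sequenced in a library. The study reports clean reads in a narrow range over its libraries, and that number was not used here. They run over all precursor entries, so reads of the 36 miRNAs with more than 1 entry can be counted repeatedly. Members were well covered, with 4875 reads or more in every library, and the counting error of a single value was at most 1.43%. Defining miRNAs of mammary epithelium (the miR-200 family, miR-141, miR-429, miR-205 and miR-375) were present in every library. Their summed level was between 36967 and 48291 TPM in lactation and between 15311 and 39157 TPM in the non-lactating period.

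MiR-30a-5p held most of the family. Its level was 64534, 60064 and 85391 TPM in HP, 98245, 55162 and 82431 TPM in LP, 31231, 36344 and 58204 TPM in HD, and 41008, 34005 and 116761 TPM in LD. It ranked between 1 and 6 among all miRNAs of a library, and LD replicate 3 was the library where it ranked 1. This member, known for repressing the autophagy gene BECN1, made up 73.9% ± 8.31 (SD, n = 12) of the family total, with 59.2% as the lowest and 86.9% as the highest share. LD replicate 3 was higher than every lactation library, while the other 5 non-lactating libraries lay between 31231 and 58204 TPM.

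MiR-30d was measured at 9310, 6367 and 8860 TPM in HP, 11590, 10455 and 11512 TPM in LP, 10823, 10540 and 10020 TPM in HD, and 10851, 7331 and 10137 TPM in LD. MiR-30e-5p was measured at 7439, 7551 and 6543 TPM in HP, 7640, 7431 and 10040 TPM in LP, 7775, 6101 and 6119 TPM in HD, and 10871, 6046 and 6056 TPM in LD. Both were the steadiest members, with a coefficient of variation over the 12 libraries of 16.4% for miR-30d and 20.9% for miR-30e-5p. MiR-30d is known as a miRNA that the endometrium releases to the embryo, and the miR-30e precursor lies within NFYC, which encodes a subunit of the CCAAT-binding factor NF-Y.

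The 3 lower-expressed members varied more than miR-30d and miR-30e-5p. MiR-30b-5p had 1844, 720 and 1116 TPM in HP, 956, 1835 and 1219 TPM in LP, 1090, 498 and 461 TPM in HD, and 979, 686 and 471 TPM in LD. MiR-30c, whose precursor also lies within NFYC, had 2484, 737 and 1013 TPM in HP, 827, 1248 and 930 TPM in LP, 1284, 662 and 486 TPM in HD, and 1086, 698 and 516 TPM in LD. MiR-30f, a member annotated in cattle, had 1881, 620 and 1217 TPM in HP, 831, 985 and 707 TPM in LP, 561, 389 and 308 TPM in HD, and 474, 227 and 429 TPM in LD. Their coefficients of variation were 48.0%, 53.7% and 64.7%, respectively, and that of miR-30a-5p was 42.8%. These values include the difference between stages. The root mean square spread of log2 normalized TPM was 0.813 for miR-30a-5p, 0.637 for miR-30b-5p, 0.566 for miR-30c and 0.839 for miR-30f. HP replicate 1 held the highest TPM of all 3 lower-expressed members. Within the non-lactating period HD replicate 1 and LD replicate 1 held their highest TPM. After division by size factors HP replicate 1 stayed the highest of all 3, while LD replicate 2 was the highest non-lactating library for miR-30b-5p and miR-30c and LD replicate 3 for miR-30f.

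**Figure D1:**
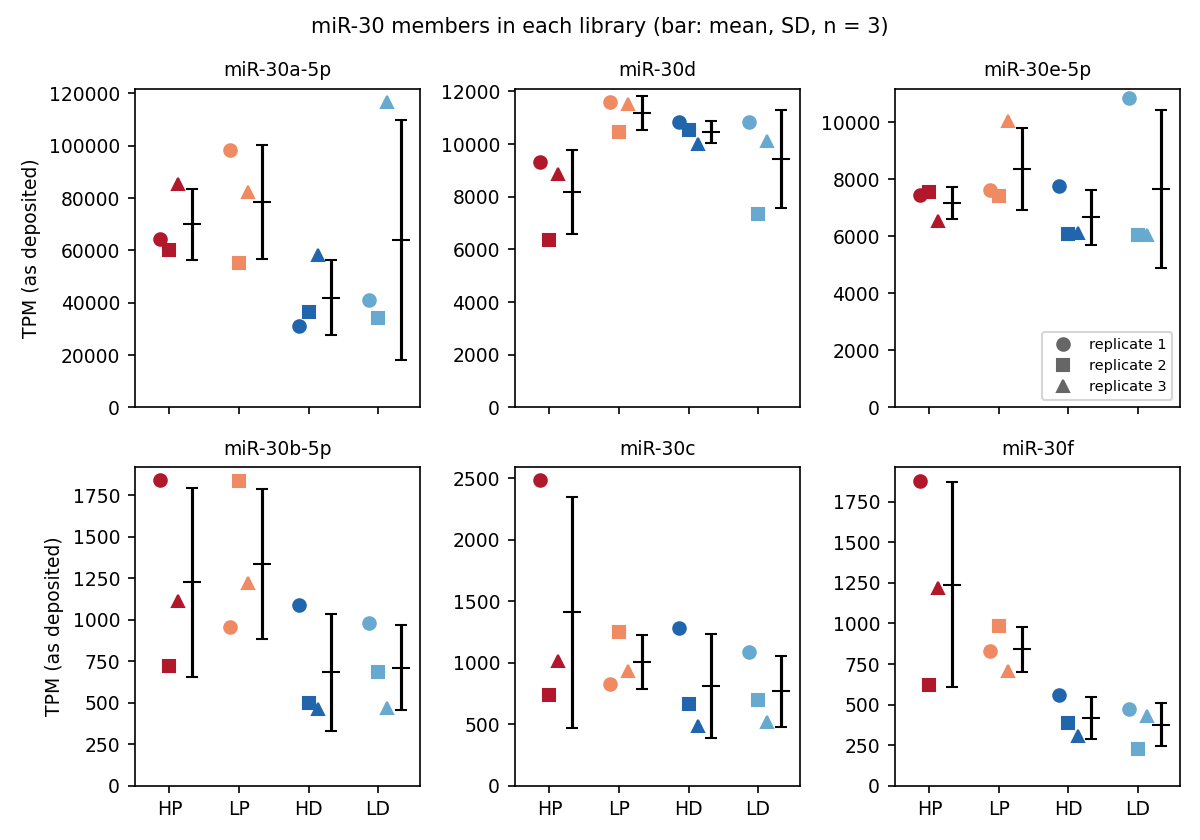
TPM as deposited (y axes, from 0) of each miR-30 member in the libraries of HP, LP, HD and LD (x axes), with symbols for the replicate and bars for mean and SD (n = 3). The 6 lactation libraries of miR-30f all lie above the 6 non-lactating ones, and miR-30a-5p reaches 116761 TPM in LD replicate 3.

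The order of the members was stable at the top. MiR-30a-5p was above miR-30d in 12 of 12 libraries, by a median ratio of 6.37. MiR-30d was above miR-30e-5p in 10 of 12 libraries (median ratio 1.37), and miR-30e-5p was above miR-30c in 12 of 12 (median ratio 9.23). MiR-30c and miR-30b-5p had no stable order, with miR-30c higher in 8 of 12 libraries and a median ratio of 1.04. MiR-30b-5p was above miR-30f in 10 of 12 libraries (median ratio 1.39). The opposite arm miR-30b-3p ranged from 4.32 to 14.6 TPM, so that the 5p arm exceeded it between 71.3 and 247 times.

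Summed over the 6 members, the family took 11.2%, 9.56% and 12.8% of the TPM of all 388 miRNAs in HP, and 14.2%, 9.52% and 12.6% in LP. The share was 7.07%, 7.32% and 10.1% in HD, and 8.24%, 6.15% and 16.9% in LD. The means were 11.2% ± 1.61 for HP, 12.1% ± 2.39 for LP, 8.16% ± 1.67 for HD and 10.4% ± 5.72 for the LD group (SD, n = 3). The stages overlapped because LD replicate 3 and HD replicate 3 reached the lactation range. Without miR-30a-5p the 5 other members together took 2.57% ± 0.358 during lactation and 2.47% ± 0.437 in the non-lactating period (SD, n = 6), so the swing of the family share was carried by miR-30a-5p. The Wilson 95% interval of a share was at most 0.0286 percentage points to either side, and covers counting error alone, because reads copied by PCR do not stand for separate molecules.

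**Figure D2:**
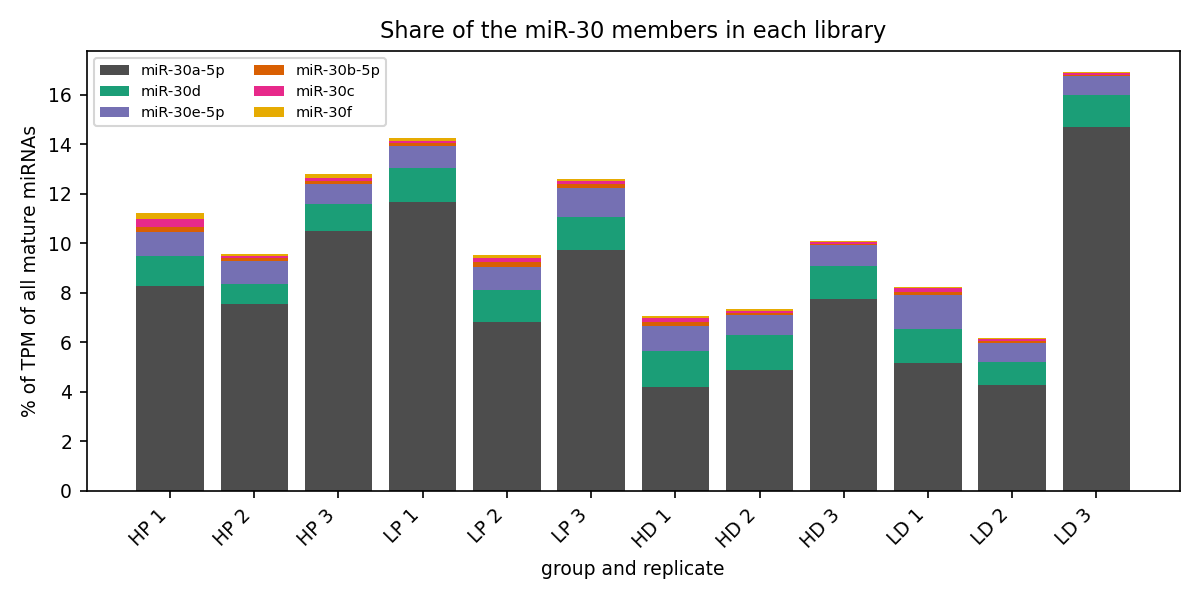
Share of the TPM of all 388 mature miRNAs (y axis, percent) taken by each miR-30 member, stacked, in each library (x axis). The stacks run from 6.15% in LD replicate 2 to 16.9% in LD replicate 3, and miR-30a-5p is the largest piece in every library.

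The comparison of HP with LP asked which miRNAs differ with milk protein percentage in lactation. None of the 6 members was DE (unadjusted p under 0.05 and absolute log2 fold change over 0.8), where 10.1% of all 388 miRNAs were. No member passed an unadjusted p of 0.05, as 15.7% of all miRNAs did, or an adjusted one, as 0.258% did. Log2 fold changes are LP over HP, from limma on log2(normalized TPM + 1). MiR-30d came closest, at 8179 ± 1585 TPM in HP and 11186 ± 634 TPM in LP (SD, n = 3). In TPM all 3 LP libraries were above all 3 HP libraries for miR-30d, a separation seen in 17.3% of all miRNAs. After division by size factors the groups overlapped, with HP replicate 1 at 9727 and LP replicate 2 at 9121 normalized TPM. The log2 fold change of miR-30d was 0.50 (SE 0.27, 95% interval -0.10 to 1.11, limma adjusted p = 0.432). The other members overlapped between HP and LP on both scales. MiR-30f had 1239 ± 631 TPM in HP and 841 ± 139 TPM in LP (SD, n = 3), a log2 fold change of -0.40 (SE 0.38, 95% interval -1.25 to 0.46, limma adjusted p = 0.716). Without HP replicate 2, the lowest HP library, miR-30f passed the DE limits at -0.80 (limma unadjusted p = 0.0415, adjusted p = 0.485). The other 4 log2 fold changes were between -0.28 for miR-30c and 0.25 for miR-30e-5p. In all, 4 of 6 members were above 0, as were 48.2% of all miRNAs, and the median was 0.20 over the members and -0.01 over all miRNAs.

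In the non-lactating period, none of the 6 members was DE by limma between HD and LD, where 3.35% of all miRNAs were. The study, which used DESeq2 with the same limits, listed miR-30a-5p among its DE miRNAs of HD vs LD. It listed it as downregulated, by its text lower in LD than in HD, while the log2 fold change here was above 0. Why the call and the direction differ was not tested. No member passed an unadjusted p of 0.05, as 4.9% of all miRNAs did, and 0% of all miRNAs passed the adjusted threshold of limma. All 6 had a log2 fold change above 0 (LD over HD), as 52.8% of all miRNAs had, but for miR-30c, miR-30d and miR-30f the sign turned when TPM was left without size factors, which moved the median of all miRNAs from 0.03 to -0.16. MiR-30a-5p had the widest difference and the widest error, with 41926 ± 14327 TPM in HD and 63925 ± 45891 TPM in LD (SD, n = 3). Its log2 fold change was 0.67 (SE 0.69, 95% interval -0.95 to 2.29, limma adjusted p = 0.993), and it was -0.05 without LD replicate 3. MiR-30e-5p, at 6665 ± 962 TPM in HD and 7658 ± 2782 TPM in LD, had a log2 fold change of 0.39 (SE 0.25, 95% interval -0.20 to 0.98, limma adjusted p = 0.993). In HD vs LD the intervals of the members reached past the DE limit of 0.8, except that of miR-30f (-0.66 to 0.77). The TPM ranges of HD and LD overlapped for every member, while 7.22% of all miRNAs had ranges apart. After division by size factors the ranges of miR-30e-5p lay apart, up to 6917 normalized TPM in HD and from 7308 in LD, as did those of 10.3% of all miRNAs.

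Whether the LP and HP difference depended on stage was tested as an interaction over all 12 libraries. The interaction terms of the members ran from -0.48 for miR-30a-5p and miR-30c to 0.45 for miR-30d on the log2 scale. None passed an adjusted p of 0.05 (limma adjusted p of 0.963 or more), nor did an unadjusted p of any member, and among all 388 miRNAs 5.15% passed unadjusted and 0% adjusted.

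Lactation was compared with the non-lactating period over all 12 libraries, with equal weight to both phenotypes. MiR-30f and miR-30b-5p were higher in lactation, and these 2 of 6 members passed the adjusted threshold where 44.3% of all miRNAs did (22.2% higher and 22.2% lower). The log2 fold change was above 0 for 6 of 6 members and for 48.7% of all miRNAs, although without size factors that of miR-30d was below 0. The median log2 fold change was 0.71 over the members and -0.01 over all miRNAs.

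MiR-30f ranged from 620 to 1881 TPM in lactation (median 908) and from 227 to 561 TPM in the non-lactating period (median 409). The ranges did not overlap, as for 15.2% of all miRNAs, and they did not overlap after division by size factors either (632 to 1983 and 297 to 555 normalized TPM). The means were 1040 ± 463 and 398 ± 119 TPM (SD, n = 6), and the log2 fold change was 1.45 (SE 0.27, 95% interval 0.87 to 2.02, limma adjusted p = 0.00100).

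MiR-30b-5p ranged from 720 to 1844 TPM in lactation (median 1167) and from 461 to 1090 TPM in the non-lactating period (median 592). HD replicate 1 and LD replicate 1 reached into the lactation range in TPM, and LD replicate 2 did so after division by size factors. The means were 1282 ± 464 and 698 ± 276 TPM (SD, n = 6), and the log2 fold change was 0.99 (SE 0.24, 95% interval 0.46 to 1.52, limma adjusted p = 0.00594).

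The other 4 members did not pass. MiR-30c had 1207 ± 650 TPM in lactation and 788 ± 323 TPM in the non-lactating period (SD, n = 6), with a log2 fold change of 0.69 (SE 0.28, 95% interval 0.08 to 1.29, limma adjusted p = 0.0649). Its call turned on single libraries, since it passed without HP replicate 2 (log2 fold change 0.86, limma adjusted p = 0.0271) and without HD replicate 1 (0.79, limma adjusted p = 0.0486). MiR-30a-5p had 74305 ± 16893 TPM in lactation and 52925 ± 32706 TPM in the non-lactating period (SD, n = 6), with medians of 73482 and 38676 TPM. Its log2 fold change was 0.74 (SE 0.41, 95% interval -0.15 to 1.63, limma adjusted p = 0.166) and rose to 1.10 (limma adjusted p = 0.0190) without LD replicate 3. MiR-30d and miR-30e-5p lay close to 0, at 0.05 (95% interval -0.40 to 0.51) and 0.25 (95% interval -0.13 to 0.63).

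**Figure D3:**
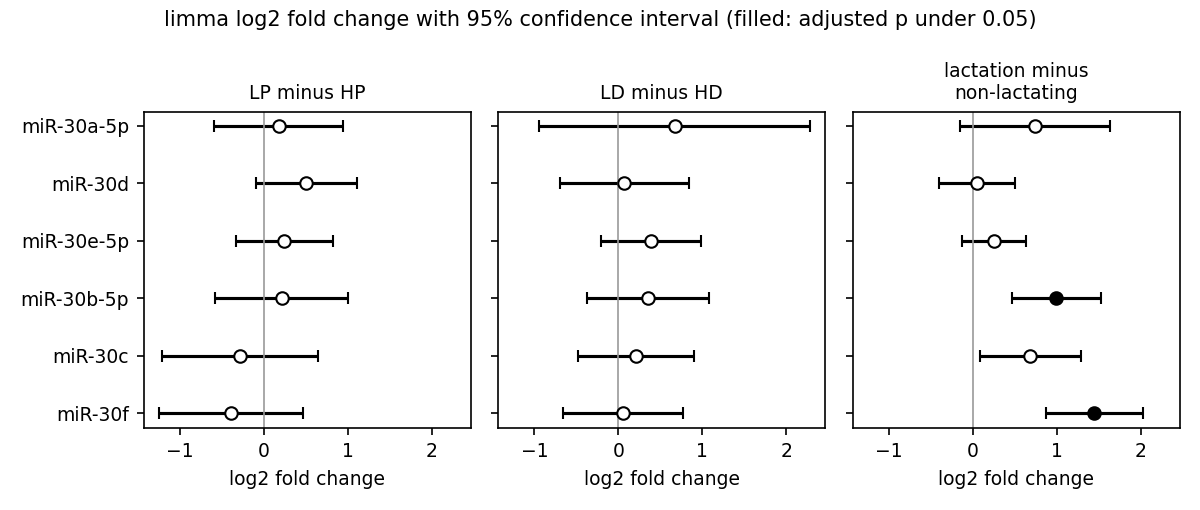
Log2 fold change (x axes) of each miR-30 member (y axis) for LP minus HP, LD minus HD and lactation minus non-lactating, with 95% confidence intervals from limma. Filled points, miR-30b-5p at 0.99 and miR-30f at 1.45 in the stage comparison, passed an adjusted p of 0.05.

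The number of reads counted on miRNA entries moved with stage (medians of 10732749 and 21208518, lower in lactation). The library with the fewest such reads in each stage, HP replicate 1 with 6026797 and HD replicate 1 with 11047701, held that stage's highest TPM of miR-30b-5p, miR-30c and miR-30f. After division by size factors this held for HP replicate 1 and not for HD replicate 1. With the log2 of these reads as a covariate, chosen after seeing the data, neither call was kept. The log2 fold change was then 0.44 for miR-30b-5p (limma adjusted p = 0.338), 1.12 for miR-30f (limma adjusted p = 0.0680) and 0.002 for miR-30c (limma adjusted p = 0.996). In that fit 68 of the 388 miRNAs passed the adjusted threshold. Without HP replicate 1, HD replicate 1 and LD replicate 1 together, also chosen after seeing the data, the differences were 0.91 for miR-30b-5p (limma adjusted p = 0.00484), 1.24 for miR-30f (limma adjusted p = 0.00311) and 0.53 for miR-30c (limma adjusted p = 0.0276). The count of miRNA reads and the stage are partly confounded here, and their parts in the difference cannot be told apart.

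**Figure D4:**
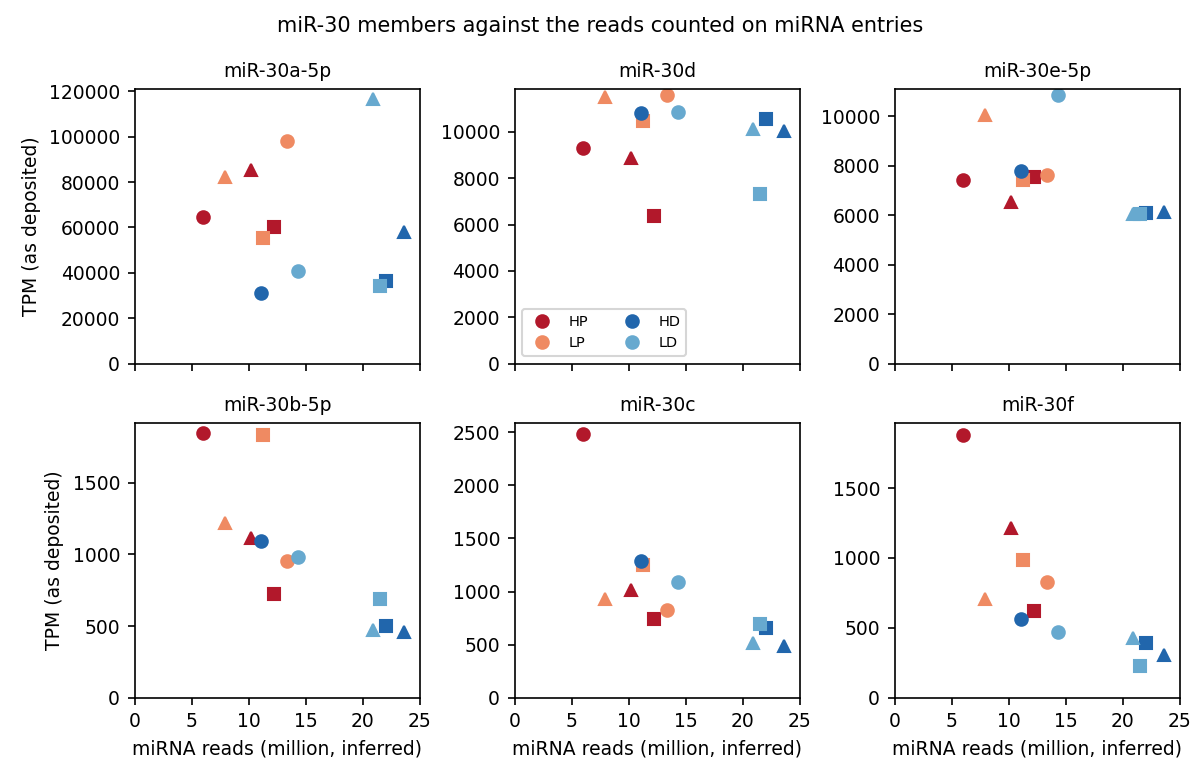
TPM as deposited (y axes, from 0) of each miR-30 member against the reads counted on miRNA entries of the library, as inferred (x axes, in units of 1e6), coloured by group, with circles, squares and triangles for replicates 1, 2 and 3. HP replicate 1, with the fewest such reads at 6026797, holds the highest miR-30b-5p, miR-30c and miR-30f.

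Some marker miRNAs of other cell types differed between the stages in the same fit. With limma's adjusted p under 0.05, 6 of 7 epithelial and 2 of 2 endothelial markers were higher in lactation, while 2 of 5 leukocyte markers and 2 of 5 of smooth muscle and stroma were lower. No erythroid or skeletal muscle marker passed. The summed levels overlapped between stages in every list. The endothelial miR-126 pair summed to between 10665 and 16528 TPM in lactation and between 4676 and 10738 TPM in the non-lactating period. The 5 leukocyte markers (miR-142 arms, miR-150, miR-223 and miR-155) summed to between 5146 and 8911 TPM in lactation and between 8262 and 20486 TPM in the non-lactating period. The 5 markers of smooth muscle and stroma (miR-143, miR-145, the miR-199a arms and miR-214) summed to between 66642 and 157431 TPM in lactation and between 99414 and 238300 TPM in the non-lactating period. MiR-143 made up between 79.7% and 94.7% of that sum. Between HP and LP, miR-143 had a log2 fold change of 0.85 (limma unadjusted p = 0.0104, adjusted p = 0.224), and the other 4 markers of the list lay between -0.61 and 0.07. Of the 3 erythroid markers 2 were also DE there, miR-144 at 1.58 and miR-451 at 1.36 (limma adjusted p = 0.272 and 0.203). Among the 5 leukocyte markers miR-150 was DE at -1.69 (limma adjusted p = 0.251). No epithelial, endothelial or skeletal muscle marker was DE between HP and LP. The 3 erythroid markers reached 6127 TPM in LD replicate 2 and at most 2041 TPM elsewhere, and the 3 skeletal muscle markers in the table ranged from 90.2 to 735 TPM, with no marker of any list at 0. The part of cell make-up in the differences of the members was not tested.

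The members lie in neighbouring pairs. In the RefSeq gene table of assembly ARS-UCD2.0, which matched all 6 precursors and was used for gene order only, miR-30c and miR-30e lie together within NFYC, and miR-30b and miR-30d lie side by side with no gene start between them. MiR-30a and miR-30f lie on the same chromosome with 1 gene start between them, and miR-30a lies within LOC132346186, which is listed as protein-coding. The ratio of the members differed between stages for 1 of 3 pairs. The share of other miRNA pairs with such a difference was not computed, and 44.3% of all single miRNAs passed the adjusted threshold between stages. The ratio is no separate result, since it uses the values that gave stage log2 fold changes of 0.99 for miR-30b-5p and 0.05 for miR-30d. MiR-30b-5p amounted to between 8.25% and 19.8% of miR-30d in lactation (median 12.0%) and to between 4.61% and 10.1% in the non-lactating period (median 6.88%). The log2 ratio differed between stages by 0.94 (two-sided exact permutation test, p = 0.0152, adjusted over 3 pairs 0.0455). It was 0.82 without HP replicate 1 and 1.08 without the 3 libraries named above (two-sided exact permutation test, unadjusted p = 0.0303 and 0.0317). For miR-30f over miR-30a-5p the difference was 0.71 (exact permutation p = 0.149, adjusted 0.221), and for miR-30c over miR-30e-5p it was 0.43 (exact permutation p = 0.221, adjusted 0.221). A ratio within a library needs no size factor, but the pairs were chosen after values of the members had been seen.

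Profiles were compared by the root mean square difference of centred log2 normalized TPM over the 12 libraries, among 234 miRNAs with a mean of 10 TPM or more. Within the family, miR-30b-5p and miR-30c were the closest to each other (0.285), followed by miR-30d and miR-30e-5p (0.298). These closest pairs cross the pairs of neighbouring genes. Outside the family, miR-30b-5p lay nearest to miR-126-3p (0.268), miR-15a (0.281) and miR-29d-5p (0.285), and miR-30c nearest to miR-15a (0.371), miR-29d-5p (0.386) and miR-423-3p (0.396).

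MiR-98, which belongs to the let-7 family, lay nearest to both steady members. For miR-30d these were miR-98 (0.187), miR-421 (0.246) and let-7b (0.256), and for miR-30e-5p they were miR-98 (0.182), let-7g (0.220) and miR-148b (0.269). A profile with little spread lies near any other such profile, and the spread of miR-30d and miR-30e-5p around their own means was 0.344 and 0.294.

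The remaining members had wider profiles. MiR-30a-5p, with a spread of its own of 0.813, lay nearest to the epithelial miR-141 (0.345), miR-362-5p (0.388) and miR-6120-3p (0.518). MiR-30f, with a spread of 0.839, lay nearest to miR-340 (0.362), the epithelial miR-200c (0.386) and miR-139 (0.412), and its nearest family member was miR-30b-5p (0.493). All of these profiles share the same libraries and their read totals, so likeness is a description of these 12 libraries.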

How the data were processed

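Per the methods of the study, the authors trimmed adapters with Cutadapt and low-quality bases with Trimmomatic, retained lengths of 18 to 30 nt, aligned them by Bowtie to the cattle genome ARS-UCD1.2 with at most 1 mismatch, and quantified miRBase entries with miRDeep2. The authors deposited RPM values, which they call TPM, in 1 table of 426 precursor entries, where each library sums to between 999952 and 999976 TPM.

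Groups and replicate numbers came from the labels. For each of the 388 mature miRNAs the entry with the highest mean was kept. Size factors (median of ratios over the libraries of a fit) scaled the TPM, and log2 was taken after adding 1. Comparisons were fitted over all 388 miRNAs with limma 3.58.1 in R 4.3.3 (empirical Bayes, mean-variance trend), with Benjamini-Hochberg adjustment. The fit was tested on simulated data. The log2(TPM + 1) scale understates changes at a few TPM. For the ratios of members, two-sided exact permutation tests were run in scipy 1.17.1. With 3 libraries against 3 such a test cannot go below 0.1.

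The reads counted on miRNA entries were inferred from the step of the values in a library, all of which were whole multiples of it to within 0.0051 TPM. A separate check did not accept the inferred reads as whole counts in most libraries, so they entered no count model. A count of 3 reads gave 0.127 TPM in the library with the most such reads and 0.498 TPM in that with the fewest. The text names the 6 members, their other arms, the 3 miRNAs with the nearest profile and a list of 26 cell type markers. The members, lists and tests were chosen with earlier results of these data known. Alternatives were TPM without size factors, other pseudocounts and filters, no trend, every precursor entry, a replicate block, 1 fit for all libraries, and each library left out. MRNA values and target predictions were not analysed here. The number of columns left unused was 0.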

Additional observations from a re-analysis of the deposited data

Results flagged for a closer look

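In TPM as deposited, within each stage, the highest or lowest of the 6 libraries stood apart from the rest for 5 of the 12 sets of libraries examined (6 members in 2 stages), by the ratio of its gap to the whole range. For normally distributed values chance gives about 1 in 20 sets, and the members share libraries. The same count was not made over all 388 miRNAs, so 5 of 12 is not shown to be particular to this family. MiR-30a-5p was far above the other non-lactating libraries in LD replicate 3, at 116761 TPM. In that library the epithelial markers summed to 28505 TPM and the endothelial markers to 4676 TPM. MiR-30c was far above the other lactation libraries in HP replicate 1, at 2484 TPM, the library with the fewest reads counted on miRNA entries. MiR-30d was far below the other non-lactating libraries in LD replicate 2, at 7331 TPM, where the erythroid markers summed to 6127 TPM and those of smooth muscle and stroma to 238300 TPM, each the highest sum of the 12 libraries. MiR-30e-5p was far above the other lactation libraries in LP replicate 3, at 10040 TPM, and far above the other non-lactating libraries in LD replicate 1, at 10871 TPM, the library with the highest sum of leukocyte markers (20486 TPM). After division by size factors, the scale of the tests, 2 of the 5 still stood apart, miR-30a-5p in LD replicate 3 (151037 normalized TPM) and miR-30c in HP replicate 1 (2619), and those of miR-30d and miR-30e-5p did not. On that scale miR-30f also stood apart as the highest of its stage in HP replicate 1 (1983) and in LD replicate 3 (555). The part of these values in the members' levels was not tested.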

How the results depend on the processing

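The higher levels of miR-30b-5p and miR-30f in lactation passed the adjusted threshold under TPM without size factors, both other pseudocounts, the filter, no trend, every precursor entry and the replicate block, with log2 fold changes of 0.89 to 1.02 and 1.34 to 1.47, and without each library in turn, with 0.80 to 1.15 and 1.24 to 1.65. With the log2 of reads counted on miRNA entries as a covariate 0 members passed in place of 2, although 2 members, miR-30a-5p and miR-30f, had an unadjusted p under 0.05 there; these libraries cannot tell that count from stage. The number of DE members in HP vs LP was 0 to 1 without each library in turn. Taken of all precursor entries, the family share was 8.92% in HP and 6.10% in HD, because that total holds repeated counts. Without size factors the sign turned in HD vs LD for miR-30c (-0.026), miR-30d (-0.17) and miR-30f (-0.18), in the stage comparison for miR-30d (-0.055), and in the interaction for miR-30b-5p and miR-30e-5p (0.065 and 0.059). That setting moved the median of all miRNAs from -0.01 to -0.10 between stages and from -0.04 to 0.11 in the interaction. MiR-30d also turned in the stage comparison without HP replicate 1, HD replicate 1 and LD replicate 1 together (-0.17).

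Without each library in turn, differences that had not passed a test changed sign. In HP vs LP they ran from -0.12 to 0.51 for miR-30a-5p, -0.10 to 0.60 for miR-30b-5p, -0.63 to 0.27 for miR-30c and -0.80 to 0.016 for miR-30f. In HD vs LD they ran from -0.045 to 1.23 for miR-30a-5p, -0.16 to 0.31 for miR-30d and -0.24 to 0.21 for miR-30f. Between stages miR-30d ran from -0.046 to 0.18. In the interaction they ran from -1.02 to 0.22 for miR-30a-5p, -0.43 to 0.26 for miR-30b-5p, -0.82 to 0.069 for miR-30c and -0.26 to 0.063 for miR-30e-5p. The cause was not tested.

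With the replicate number as a block, the number of DE members was 0 within either stage and 2 members passed between stages, so no call changed. The numbers belong to different cows. Libraries of the same number deviated together with r of -0.20, -0.26 and 0.01 in HP and LP and of 0.55, -0.11 and 0.50 in HD and LD over the 388 miRNAs, and with 0.11, 0.11 and 0.065 in HP and HD and -0.39, -0.073 and -0.21 in LP and LD. The r was above 0.1 for 2 of 3 numbers in HD and LD. Of those 6 libraries 4 correlated best with their own number, against 0 of 6 in HP and LP. No chance level was computed for these counts. Deviations were taken from group means of 3 libraries, so the matches are not independent. Libraries numbered 1 and 3 in HD and LD thus deviated in part alike, and those numbered 2 did not. Whether this exceeds chance, and its source, were not tested. The labels name no pairing, so the numbers were not taken as pairs. The planned count models on recovered reads were not run, since the inferred reads did not pass a separate check for whole counts. The counting error of a member was at most 1.43%, which says nothing of the difference in miRNA reads between stages. With 3 cows a group the intervals within a stage were wide, so a difference that did not pass is not shown to be absent.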
